A study of Mus musculus with 16 samples.

Results

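Tumor CD8 T cells that carried RNA of both *Tcf7* and *Pdcd1* were selected on their raw counts of unique molecular identifiers (UMIs, each marking 1 captured RNA molecule). A barcode was chosen by having at least 1 UMI of *Cd8a* or *Cd8b1*, at least 1 of the CD3 genes *Cd3e*, *Cd3d* and *Cd3g*, at least 1 of *Tcf7* and at least 1 of *Pdcd1*. It also had to have fewer than 20 UMIs over *Gzmc*, *Gzmd*, *Gzme* and *Gzmf*, fewer than 10 over the interferon-induced *Ifit1*, *Ifit3*, *Rsad2* and *Isg15*, fewer than 3 over the cell-cycle genes *Mki67*, *Top2a*, *Birc5*, *Ube2c* and *Ccna2*, and at most 1 over the macrophage complement genes *C1qa*, *C1qb* and *C1qc*. These conditions held for 229 of the 8984 barcodes in the 4 tumor CD8+ libraries, out of 37609 barcodes in the 16 libraries of the series. The cells are called Tcf7+Pdcd1+ cells here.

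*Tcf7* encodes TCF-1, a transcription factor that naïve and memory T cells use to keep the capacity for self-renewal, and *Pdcd1* encodes PD-1, an inhibitory receptor that T cells put on their surface after their antigen receptor is engaged. In chronic infection and in tumors, CD8 T cells that hold both proteins form a pool that renews itself and gives rise to terminally exhausted cells, which have lost TCF-1 and carry further inhibitory receptors. Antibodies that block PD-1 act in mouse models largely through the expansion of that pool.

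The cells came from MC38 tumors, grown from a mouse colon adenocarcinoma line under the skin of female mice with the strain background C57BL/6. The mice were *Aire*+/+ or *Aire*-/- littermates, the latter lacking *Aire* on both chromosomes, the gene by which thymic epithelial cells display tissue antigens, and they were bought at 8 weeks of age. They received anti-PD1 antibody or an isotype control, and tumors were taken on day 19 after implantation. Before the CD8+ sort the tumors of a condition, from 4 to 6 mice, were combined, so each condition had 1 library, and a difference between conditions carries no estimate of the spread between mice. In what follows, sets of 4 values start with the *Aire*+/+ mice, isotype before anti-PD1, and go on with the *Aire*-/- mice in the same order of treatment. A level is the number of UMIs of a gene in a set of cells per 1000000 UMIs of those cells.

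Of the 8347 CD8 T cells (barcodes that met the *Cd8*, *Cd3* and *C1q* conditions), 982 had a *Tcf7* UMI, 6992 had a *Pdcd1* UMI and 452 had both. The interferon limit left out 138 of those 452 cells, the cell-cycle limit 105 and the granzyme limit 19, some of them failing more than 1 limit. The cells just inside the interferon limit, with 7 to 9 UMIs, numbered 6, 7, 5 and 8, and those just outside it, with 10 to 12 UMIs, numbered 6, 2, 1 and 5. At the cell-cycle limit, 7, 3, 8 and 2 cells had 2 UMIs and lay inside, and 9, 4, 3 and 3 cells had 3 UMIs and lay outside. No member had 10 to 19 UMIs of the granzymes of the rule, and 1 cell, in the *Aire*+/+ isotype library, had 20 to 29. Most members met the *Tcf7* condition by the narrowest margin: 40, 39, 22 and 46 had exactly 1 UMI, whereas 48, 46, 29 and 42 had 3 or more UMIs of *Pdcd1*. Cells with 0 UMIs of *Tcf7*, just outside that threshold, numbered 808, 842, 586 and 765, and a count of 0 in a cell does not show that the gene was silent.

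The sort and the labels were checked against markers. *Cd8a* had a UMI in 97.0%, 98.2%, 97.5% and 97.0% of the members, and *Cd4* had 0 UMIs in them. The free RNA of a droplet library was read from macrophages of the CD45+ tumor libraries (at least 20 UMIs of the *C1q* genes and 0 of the CD3 genes), which should lack T cell genes: among 1055, 710, 469 and 163 macrophages, 0% to 0.474% had a *Tcf7* UMI and 1.23% to 2.56% a *Pdcd1* UMI. Those macrophages had median depths of 14811, 15139.5, 14457 and 11641 UMIs, and the members 10049, 8038.5, 11477.5 and 5713.5. CD8 T cells were 148, 206, 203 and 703 of the 2936, 2211, 1860 and 2076 barcodes of the CD45+ tumor libraries. In the CD8+ libraries they were 2502, 2077, 1711 and 2057 of 2688, 2222, 1860 and 2214. The CD45+ macrophages therefore do not give the free RNA of T cell genes in the CD8+ libraries. Those libraries held only 4, 8, 10 and 6 macrophages, too few to show it, and none had a UMI of either gene. How many members met the *Tcf7* condition through free RNA was not tested. Members of the *Aire*-/- anti-PD1 library were thus the shallowest, and their summed depths were 749842, 497374, 501601 and 498994 UMIs. *Aire* had 6, 3, 1 and 0 UMIs in the whole libraries, too few to check the genotypes. *Xist* had 8701, 5880, 4254 and 4386 UMIs, and the Y-linked *Ddx3y*, *Eif2s3y*, *Kdm5d* and *Uty* had at most 1 UMI in any of the 4 libraries, as in female mice. All 120 pairs of libraries in the series shared barcode sequences, with a median of 7 and at most 18 per pair.

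Tcf7+Pdcd1+ cells were a small share of CD8 T cells in the 4 libraries. They made up 2.68% of 2502 cells (95% interval 2.08 to 3.39), 2.70% of 2077 cells (2.04 to 3.49), 2.34% of 1711 cells (1.68 to 3.17) and 3.21% of 2057 cells (2.49 to 4.06). The intervals are exact Clopper-Pearson intervals for counting error only, and all 4 overlap. Between *Aire*-/- and *Aire*+/+ libraries the ratio of shares was 0.873 under isotype (0.575 to 1.31) and 1.19 under anti-PD1 (0.821 to 1.73). For anti-PD1 over isotype it was 1.01 in *Aire*+/+ (0.693 to 1.46) and 1.37 in *Aire*-/- mice (0.913 to 2.09). With all UMIs the interval of each ratio held 1, and no test over mice was possible. Because the *Aire*-/- anti-PD1 members were shallow, each cell was also thinned to 3000 UMIs before the selection. The granzyme, interferon and cell-cycle limits stayed at the same UMI counts, so thinned cells met them more readily. The cells with *Pdcd1* and 0 *Tcf7* UMIs within the limits numbered 808, 842, 586 and 765 before thinning. After it they numbered 1093, 1126, 807 and 1006, so the thinned selection describes other cells as well as another depth. The share then fell to 1.04%, 1.18%, 0.965% and 1.88%, and the ratio of anti-PD1 to isotype in *Aire*-/- mice became 1.95, with an interval of 1.08 to 3.66, while the other 3 ratios kept 1 inside their intervals. The ratio of anti-PD1 to isotype in *Aire*-/- mice was 0.924 (0.464 to 1.85) when at least 2 *Tcf7* UMIs were asked for. Without the granzyme, interferon and cell-cycle limits it was 1.11 (0.833 to 1.48). Among cells with *Pdcd1* UMIs within the limits it was 1.24 (0.827 to 1.89). Each of these intervals held 1, so the size of the ratio moved with the selection and its direction was not settled.

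**Figure D1:**
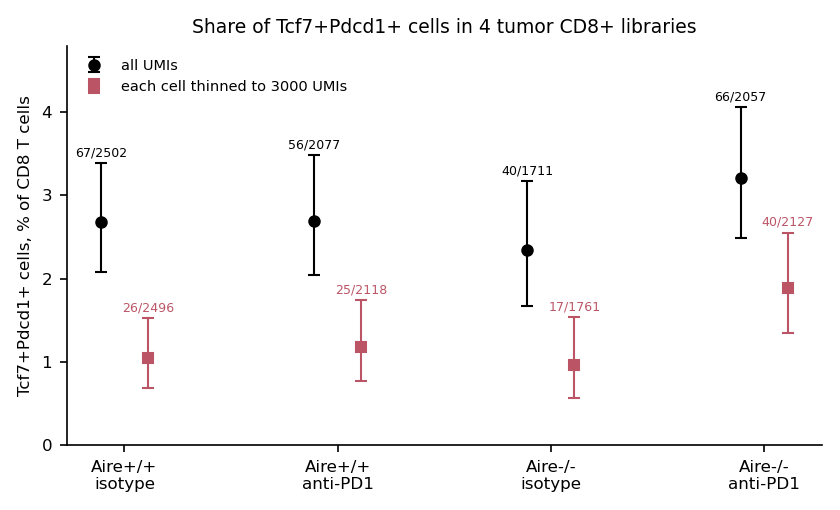
Share of Tcf7+Pdcd1+ cells among CD8 T cells (%) in each tumor CD8+ library, with exact 95% intervals of counting error and the numbers of members over CD8 T cells. Black circles use all UMIs and lie between 2.34% and 3.21%, and red squares, after each cell was thinned to 3000 UMIs, lie between 0.965% and 1.88%.

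The members were compared with the 3001 cells that met every other condition but had 0 *Tcf7* UMIs. UMIs were summed per library in each set, and edgeR tested the sums over the 4 libraries as pairs. Members had more RNA of most tested genes on a list of stem-like T cell genes, and less of most genes on lists of terminal exhaustion, cytotoxic and glycolysis genes. At an adjusted p below 0.05, 393 of 9321 genes were higher in the members (4.22% of the genes tested) and 460 were lower (4.94%). Of these, 120 higher and 125 lower genes differed by at least 2-fold, and the median log2 fold change of all genes tested was 0.01. *Tcf7* and *Pdcd1*, like the other genes of the rule, were not tested.

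Genes of 3 receptors that guide the movement of T cells, *Ccr7*, *S1pr1* and *Cxcr4*, were among those higher in the members. The chemokine receptor genes *Cxcr6*, *Cx3cr1* and *Ccr9* were among those lower, and receptors of this kind were not tested as a list. Of these, *Ccr9* also counts among the dendritic cell markers below. Its level was only 7.61, 3.81, 14.8 and 0.438 in the cells without *Tcf7* UMIs. *Ccr7*, the receptor that leads T cells into lymphoid tissue, was at 1447, 2105, 2117 and 1170.3 in the members and at 635, 668, 599 and 421 in the cells without *Tcf7* UMIs. The lowest member level lay above the highest level of the other set, and the log2 fold change was 1.52 ± 0.09 (SE, n = 4 libraries, edgeR adjusted p = 5.22e-09). *S1pr1*, the sphingosine-1-phosphate receptor by which T cells leave tissues, was at 69.3, 70.4, 41.9 and 204 against 11.5, 14.5, 14.8 and 34.3, a log2 fold change of 2.32 ± 0.17. The *Aire*-/- anti-PD1 library was the highest of the 4 in both sets. *Cxcr4*, the receptor of the chemokine CXCL12, was at 49.3, 129, 51.8 and 92.2 against 17.3, 36.1, 21.2 and 37.1 (1.502 ± 0.15). In each of these 3 receptor genes the members were higher in 4 of 4 libraries.

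*Slamf6*, a receptor of the SLAM family that marks TCF-1-bearing exhausted cells in other work, was at 42.7, 68.4, 53.8 and 100.2 in the members and 14.3, 13.1, 14.8 and 13.4 in the cells without *Tcf7* UMIs (log2 fold change 2.19 ± 0.21, edgeR adjusted p = 2.32e-06). Every member level exceeded every level of the other set. Only 31.3%, 35.7%, 35.0% and 36.4% of the members had a *Slamf6* UMI, against 10.1%, 10.2%, 8.87% and 8.10% of the other cells, so most members were without one at these depths. Macrophages had *Slamf6* UMIs in 16.6% to 27.3% and are therefore no background for this gene. Of the 16 genes on a list of stem-like T cell genes, 14 were tested, 11 were higher and 1 was lower, with a median log2 fold change of 1.32 beside 0.01 for all genes tested. The higher genes included the transcription factors *Id3* (2.46 ± 0.23), *Lef1*, a DNA-binding relative of TCF-1 (2.03 ± 0.33), *Myb* (1.83 ± 0.48) and *Klf2*, which drives *S1pr1* (1.11 ± 0.14). *Ltb*, encoding a lymphotoxin chain, was the lower member of that list at −0.31. *Xcl1*, a chemokine that attracts cross-presenting dendritic cells, had a log2 fold change of 0.02 ± 0.11 and was not called, and it stood at −0.54 and was called lower after each cell was thinned to 3000 UMIs.

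Of the 10 genes with the largest increase, *Dapl1* came first, at 133, 92.5, 149.5 and 190.4 in the members against 15.96, 6.75, 15.3 and 6.57 (3.65 ± 0.22, edgeR adjusted p = 7.55e-09). It was followed by *Cd7*, an immunoglobulin-family receptor of T cells, at 125, 66.3, 118 and 345 against 15.5, 21.6, 23.9 and 37.1 (2.65 ± 0.19). Both genes separated the sets without overlap, and the *Aire*-/- anti-PD1 members were highest for each. *Socs3*, an inhibitor of cytokine signaling through STAT3, was at 149, 129, 144 and 164 against 37.8, 46.6, 57.7 and 61.6 (1.54 ± 0.13), and *Cd200*, a ligand of an inhibitory receptor on myeloid cells, at 77.3, 127, 85.7 and 44.1 against 33.7, 32.4, 23.2 and 28.8 (1.45 ± 0.19). *Fabp5*, a fatty acid carrier, had a log2 fold change of 1.92, but 1 cell held 45.5% of its UMIs in the members. *Marcksl1*, an actin-binding protein, had a log2 fold change of 1.598 with all UMIs and −0.08, no longer called, after thinning. On a list of memory regulators, 4 of 10 tested genes were higher (*Dapl1*, *Actn1*, *Eomes* and *Foxp1*) and 3 were lower (*Il2rb*, *Cd44* and *Klrd1*), with a median of 0.24.

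Most genes on the list of terminal exhaustion genes were lower in the members. *Havcr2*, encoding the inhibitory receptor TIM-3, was at 28.0, 40.2, 35.9 and 30.1 against 160.1, 188, 189 and 197 in the cells without *Tcf7* UMIs, a log2 fold change of −2.47 ± 0.13 (edgeR adjusted p = 3.07e-09). *Entpd1*, encoding the ectonucleotidase CD39, was at 5.33, 12.1, 7.97 and 8.02 against 55.1, 67.1, 69.5 and 77.8 (−3.05 ± 0.23). In both genes the highest member level lay far below the lowest level of the other set. *Lag3*, which binds MHC class II, was at 679, 579, 762 and 523 against 1184, 1289.5, 1306 and 1107 (−0.97 ± 0.08), and *Cxcr6*, a chemokine receptor of tissue-resident T cells, at 345, 374, 325 and 457 against 1004, 935, 1068 and 1083 (−1.47 ± 0.08). Members thus held an intermediate amount of *Lag3* and *Cxcr6* rather than none. Of 15 tested genes on a list of terminal exhaustion genes, 12 were lower and 2 were higher, with a median of −1.35. The 12 also included *Cd244* (−3.20), *Prdm1*, a repressor of the memory program (−2.38), *Id2* (−1.51), *Tigit* (−0.80) and *Ctla4* (−0.77). Against the direction of the list, *Tox*, a transcription factor needed for exhausted cells to persist, was at 65.3, 80.4, 95.7 and 68.1 in the members against 45.5, 49.1, 27.2 and 41.9 (0.89 ± 0.18), and the receptor gene *Cd160* at 124, 113, 191 and 128 against 82.3, 74.1, 73.7 and 79.9 (0.80 ± 0.13).

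Most cytotoxic effector genes were lower as well. *Gzmb*, encoding the protease granzyme B, was at 457, 609, 85.7 and 431 against 1841, 2139, 2144 and 3002 (−2.62 ± 0.25, edgeR adjusted p = 2.11e-06), and the *Aire*-/- isotype members were the lowest of all. *Prf1*, encoding the pore-forming perforin, was at 60.0, 76.4, 287 and 110.2 against 595, 457, 537 and 601 (−2.19 ± 0.23). Its level in the *Aire*-/- isotype members came mostly from 1 cell, which held 79.2% of the UMIs there. *Ifng*, encoding interferon-γ, was at 372, 181, 339 and 293 against 1314, 627, 1059 and 727 (−1.66 ± 0.09). Of 18 tested cytotoxic effector genes 12 were lower and 1, *Gzmm*, was higher, with a median of −0.86. *Ccl5* and *Gzmk* were among the 5 not called, at −0.35 ± 0.20 and −0.57 ± 0.20. The level of *Ccl5* ranged from 801 to 5106 in the members and from 1991 to 5334.5 in the cells without *Tcf7* UMIs. Macrophages can make *Ccl5* themselves and are no background for this gene. Other large decreases were those of *Il1r2*, a decoy receptor for interleukin-1 (−3.18), *Mt1*, a metal-binding metallothionein (−2.88), *Csf2*, encoding the growth factor GM-CSF (−2.03), *Ccl3* (−1.95), *Sv2c* (−2.32) and 1700017B05Rik (−1.82).

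Glycolytic enzymes moved as a block. Of 12 tested glycolysis genes 11 were lower and 0 higher, with a median of −0.63, and *Hk2* was the gene not called (0.11 ± 0.16). *Gapdh* was at 3166, 2202, 2753 and 1912 in the members against 4601, 3933, 3677 and 3178 (−0.65 ± 0.06), and *Ldha*, which makes lactate, at 1472, 824, 1499 and 1134 against 2019, 1673, 1829.7 and 1649.8 (−0.59 ± 0.09). The isotype members had more of both transcripts than the anti-PD1 members of the same genotype. Genes induced through the antigen receptor changed little: of 13 tested, 2 were higher, *Fos* (0.66 ± 0.09) and *Myc* (0.84 ± 0.16), and 0 lower. Among costimulatory genes, *Tnfsf8*, the ligand of CD30, was higher (1.65 ± 0.23), *Tnfrsf9* (−1.27 ± 0.10), *Icos* (−0.64 ± 0.13) and *Tnfrsf18* (−0.31 ± 0.08) were lower, and 4 of the 8 were not called. Of 5 tested residency genes, *Ahr* was higher (1.03) and *Itga1* (−1.15) and *Rgs1* (−0.96) were lower.

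The remaining lists had few calls. Among 12 interferon-induced genes outside the rule, *Mx1* was higher (0.79, and −0.59 without a call after thinning) and *Ly6a* was lower (−0.54). Among 12 cell-cycle genes outside the rule *H2afz* was higher (0.26, and −0.03 without a call after thinning) and *Stmn1* lower (−0.69). With all cells, the medians of the interferon and cell-cycle lists were 0.26 and −0.04. When cells with other cell types' markers were left out, *H2afz* (0.24) and *Stmn1* (−0.44) were not called. *Irf1* (0.53), *Irf7* (0.51) and *Igtp* (0.54) were then called higher, along with *Mx1* (0.96), and *Ly6a* was still called lower (−0.59). Of 5 tested genes that Wnt signaling or TCF factors can control, *Lef1* and *Myc* were higher and the other 3 not called, with a median of 0.25.

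The number of calls moved with the alternatives, whereas the directions of called genes mostly did not. Thinning every cell to 3000 UMIs came before the selection, so it also loosened the limits on UMI counts and changed the cells chosen. It left 26, 25, 17 and 40 members, and 78 genes were then higher and 233 lower in edgeR. Of the 83 named genes that had been called and could still be tested, 52 kept their call. Without the *Aire*+/+ isotype library 231 genes were higher and 263 lower, and without the *Aire*+/+ anti-PD1 library 205 and 273.

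**Figure D2:**
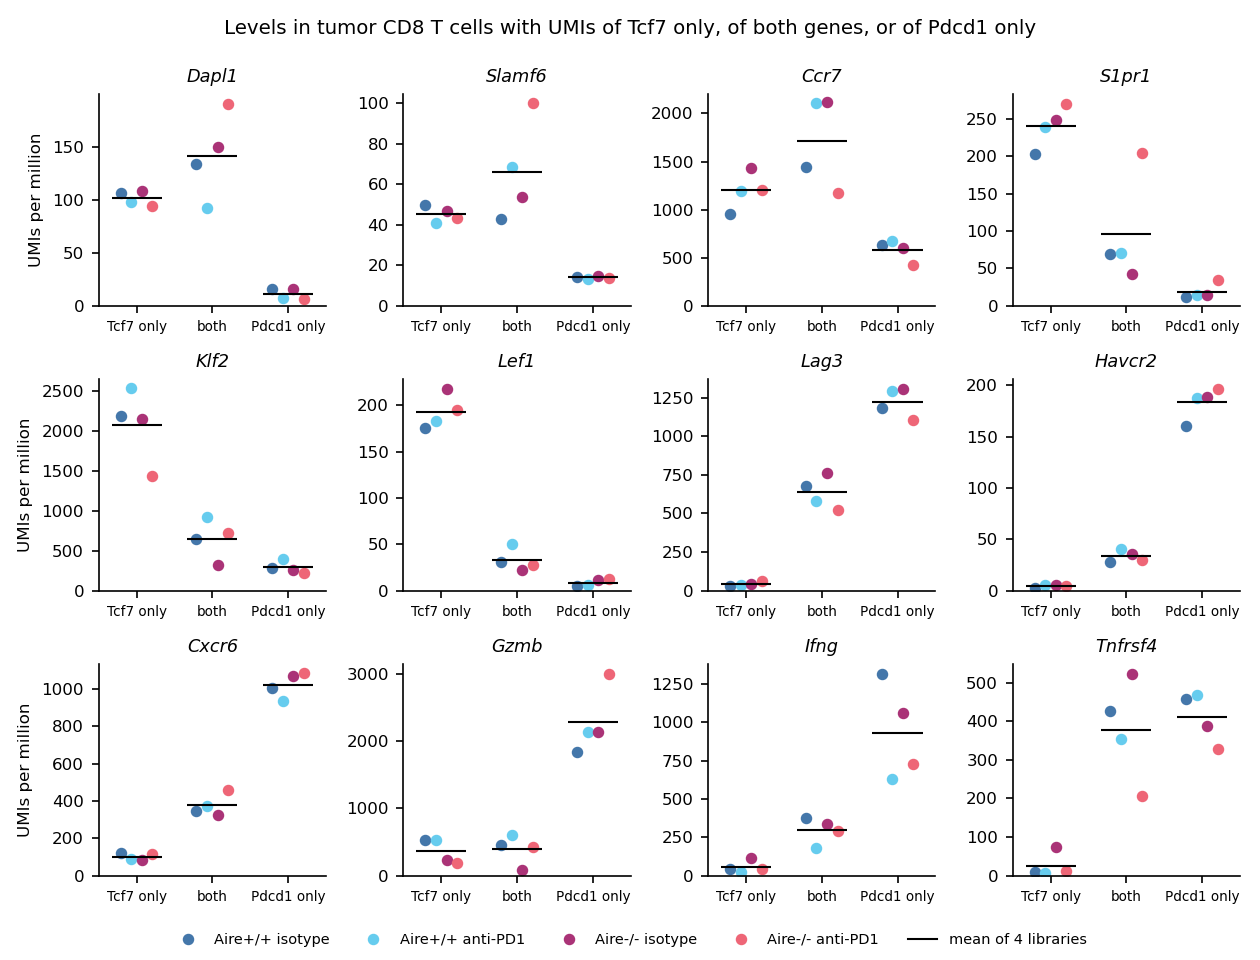
Levels (UMIs per 1000000) of 12 genes in CD8 T cells with UMIs of *Tcf7* only, of both *Tcf7* and *Pdcd1*, or of *Pdcd1* only, all within the other limits of the selection, with 1 point per tumor CD8+ library and bars at the mean of 4 libraries. *Ccr7*, *Slamf6* and *Dapl1* were on average at least as high in cells with both genes as in cells with *Tcf7* only, and *Lag3* and *Cxcr6* lay between the other 2 sets.

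Most of these directions were also seen in libraries that did not enter the tests. Those libraries came from the same experiment, and their cells may stem from the same pooled tumors, so they are not known to be a separate set of animals. The same conditions picked 35 cells in the 4 CD45+ tumor libraries (5, 7, 3 and 20), against 455 cells with *Pdcd1* and 0 *Tcf7* UMIs. The plan left out libraries with fewer than 10 cells in a set, which 3 of the 4 had, so no test was run and the UMIs of the 4 libraries were pooled. Of the genes called higher in the CD8+ libraries, 86.7% of the 377 with enough UMIs were higher in the CD45+ cells too, and of those called lower, 92.7% of 449 were lower. Over all 8609 genes with enough UMIs, 47.7% were higher and 52.3% lower. *Slamf6* was at 105 against 13.1, a ratio of 7.99 (5.16 to 12.3) with its 95% counting interval, *Ccr7* at 2197 against 385, a ratio of 5.71 (5.24 to 6.21), and *Dapl1* at 172 against 13.4, a ratio of 12.9 (8.86 to 18.8). On the lower side, *Havcr2* was at 13.5 against 178, a ratio of 0.0754 (0.0244 to 0.177), and *Gzmb* at 439 against 2477, a ratio of 0.177 (0.151 to 0.207). Genes that mature dendritic cells also express were high along with *Ccr7* in the same 35 cells: *Fscn1* was at 186 against 0.717, *Fabp5* at 363 against 22.7, *Marcksl1* at 237 against 16.7, *Cd200* at 178 against 19.8 and *Cd74* at 729.5 against 195. How much of the *Ccr7* level in these cells came with dendritic cell RNA was not tested. The intervals of these pooled UMIs cover counting error alone and not the spread between cells or libraries. Of the called genes with enough UMIs, 162 of the 377 higher and 188 of the 449 lower had an interval that held 1. The interval of 1 gene called higher lay wholly below 1. Among genes not apart in these few cells, the ratio was 1.32 (0.799 to 2.08) for *Tox*, 1.12 (0.919 to 1.36) for *Fos*, 1.07 (0.280 to 2.96) for *Lef1*, 0.874 (0.704 to 1.07) for *Il7r*, 0.688 (0.291 to 1.40) for *Myc* and 0.527 (0.168 to 1.27) for *Mx1*, which had been higher in the tests. It was 0.776 (0.485 to 1.18) for *Il1r2* and 1.02 (0.532 to 1.81) for *Stmn1*, which had been lower, and all of these intervals held 1.

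The second comparison asked how these cells differed from the 362 tumor CD8 T cells that met every other condition but had 0 *Pdcd1* UMIs. It shares the members and their sums with the comparison above, so the values of both are given side by side and not counted together. Relative to the *Tcf7* cells without *Pdcd1* UMIs, the members had more RNA of the tested genes on the terminal exhaustion list and of most costimulatory and glycolysis genes, and less of 8 of the 15 tested stem-like genes. In edgeR, 550 of 5824 genes were higher (9.44%) and 548 lower (9.41%), with a median log2 fold change of −0.01. The scaling mattered here: with total UMIs and no TMM factor 1106 genes were higher and 333 lower, with a median of 0.19. No named gene called in this comparison changed direction with that scaling, and 89 of the 95 named genes called in this comparison kept their call. Another 15 named genes, not called with the TMM factor, were called with that scaling.

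The tested inhibitory receptor genes were lower in the *Tcf7* cells without *Pdcd1* UMIs than in the members, though not absent. *Lag3* was at 679, 579, 762 and 523 in the members against 30.9, 37.6, 43.2 and 60.3, a log2 fold change of 3.72 ± 0.17 (SE, n = 4 libraries, edgeR adjusted p = 1.18e-09). *Tigit*, a receptor that competes for ligands of the costimulatory CD226, was at 167, 213, 207 and 204 against 32.5, 45.7, 32.4 and 60.3 (2.02 ± 0.16). *Ctla4*, an inhibitory receptor for the ligands of CD28, was at 368, 424, 387 and 509 against 116, 73.5, 86.4 and 199.5 (1.65 ± 0.16), and *Tox* at 65.3, 80.4, 95.7 and 68.1 against 15.8, 19.6, 21.6 and 23.2 (1.74 ± 0.20). For each of these genes every member level lay above every level of the other set. The 11 tested genes of the terminal exhaustion list were all higher, with a median of 1.98. The minimum of 80 UMIs over the 8 sums is more readily reached by a gene that is high in a set, and 5 genes of the list were below it. Their mean levels were close in both sets: 8.35 against 7.83 for *Entpd1*, 9.34 against 8.94 for *Cd38*, 5.01 against 4.17 for *Prdm1*, 2.502 against 2.36 for *Cd244* and 0.333 against 0 for *Il10*. *Havcr2* was among the 11 (2.80 ± 0.34) at member levels of only 28.0, 40.2, 35.9 and 30.1.

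Members also held the RNA of tumor necrosis factor receptors that costimulate T cells. *Tnfrsf4*, encoding OX40, was at 425, 354, 522 and 206 against 9.81, 6.53, 73.8 and 10.8 (3.98 ± 0.31), and *Tnfrsf9*, encoding 4-1BB, at 708, 531, 947 and 407 against 177, 67.0, 55.8 and 51.0 (2.65 ± 0.22). Of the 8 costimulatory genes 5 were higher and 0 lower, with a median of 0.72. *Ccr8*, a chemokine receptor, and *Ccl1*, its ligand, were both among the 10 genes with the largest increase. *Ccr8* was at 288, 324, 305 and 248 against 6.04, 9.80, 3.60 and 20.1 (4.72 ± 0.25) and had a UMI in 128 of the 229 members, whereas *Ccl1* was at 485, 277, 369 and 32.1 against 6.79, 1.63, 0 and 0 (6.45 ± 0.27) and had a UMI in 35. *Ccl1* RNA was thus concentrated in few members, and 1 cell held 29.9% of it. The same held for *Gm156* (6.37, 23 members), *Spp1*, encoding osteopontin (5.602, 18 members), *Serpine2*, a protease inhibitor (4.798, 29 members) and *Penk*, the precursor of enkephalins (6.19, 31 members). *Rgs16*, a brake on chemokine receptor signals, was found in 125 members and was at 475, 555, 620.0 and 317 against 13.6, 26.1, 25.2 and 24.7 (4.30 ± 0.18). The other 3 of the 10 were *Ccdc184* (6.16), *Igfbp7* (5.77) and *Gpm6b* (4.36).

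Cytotoxic genes were only in part higher. Of 17 tested, 11 were higher and 1 lower, with a median of 0.81. *Ifng* was at 372, 181, 339 and 293 against 40.0, 26.1, 115 and 43.3 (2.33 ± 0.22) and *Ccl3* had a log2 fold change of 2.93 ± 0.38, while *Gzmb*, at 528, 526, 225 and 181 in the cells without *Pdcd1* UMIs, was not called (−0.15 ± 0.24). *Gzmm* was the lower gene (−1.90). Of the 12 glycolysis genes 9 were higher and 0 lower against the cells without *Pdcd1* UMIs, with a median of 0.73, and *Slc2a1*, *Gpi1* and *Pfkp* were not called. *Gapdh*, for example, was at 1409, 1284, 907 and 945 in those cells (0.93 ± 0.10).

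Several genes of the stem-like list were lower in the members. *Lef1* was at 30.7, 50.3, 21.9 and 28.1 against 176, 183, 218 and 195 (−2.76 ± 0.19, edgeR adjusted p = 4.59e-08). *Klf2* was at 648, 915, 321 and 717 against 2186, 2530.4, 2145 and 1434 (−1.92 ± 0.18). Both genes were thus intermediate, above the cells without *Tcf7* UMIs and far below the *Tcf7* cells without *Pdcd1* UMIs. *Ccr7* (0.28 ± 0.10), *Slamf6* (0.25 ± 0.22), *Il7r*, the receptor of interleukin-7 (0.07 ± 0.13), and *Dapl1* (0.24 ± 0.16) were not called. Of 15 tested stem-like genes 8 were lower and 1, *Xcl1*, was higher, with a median of −0.75. *Xcl1* was at 621, 537, 977 and 473 against 275, 83.3, 119 and 91.3 (2.001 ± 0.21). Among the 10 genes with the largest decrease were *Igfbp4* (−5.14), found in 5 members, *Treml2* (−3.96), *Il6ra*, a chain of the interleukin-6 receptor (−3.09), *Pde2a*, a phosphodiesterase (−2.90), 5730508B09Rik (−2.87), *Fam101b* (−2.37), *Txk*, a kinase of antigen receptor signaling (−2.28), and *Klf3* (−2.15).

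Memory regulators were mostly lower as well, with 7 of 11 lower, among them *Bcl2*, which protects from cell death (−1.48 ± 0.12), and *Foxp1*, which maintains quiescence (−1.17 ± 0.13), and 2 higher, *Cd44* and *Klrd1*. Their median was −0.71. Of the 12 interferon genes outside the rule 8 were lower, with a median of −0.67, as in *Gbp2* (−1.39 ± 0.20) and *Ifi47* (−1.003 ± 0.13), and *Mx1* was higher (1.08 ± 0.32). The rule removed cells with many UMIs of related interferon genes from both sets. Of 11 genes induced through the antigen receptor 4 were lower (*Fos*, *Jun*, *Myc* and *Nfkbid*) and 2 higher (*Nr4a3* and *Irf4*), with a median of −0.01. *Nfkbid* (−0.74) and the memory regulator *Foxo1* (−0.71) were at 0.00 and 0.36, without a call, after thinning. Of 4 tested residency genes *Itgae* and *Rgs1* were higher and *Cd69* lower, with a median of 0.45, of 10 cell-cycle genes *Tubb5* was lower and the others were not called, with a median of −0.02, and of 4 tested Wnt or TCF targets *Lef1* and *Myc* were lower, with a median of −0.85. After thinning to 3000 UMIs, 1772 genes could be tested, of which 120 were higher and 132 lower, and without the *Aire*+/+ isotype library 325 genes were higher and 371 lower, and without the *Aire*+/+ anti-PD1 library 366 and 423.

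**Figure D3:**
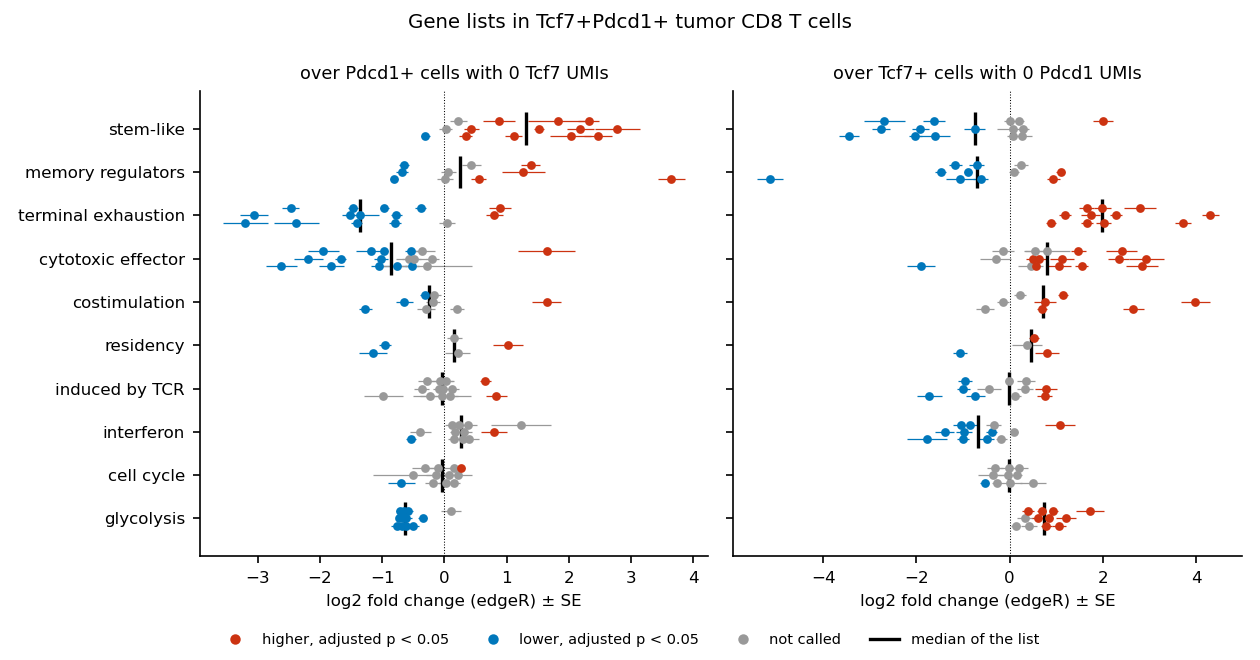
Log2 fold changes (edgeR, ± SE, 4 libraries) of the tested genes of 10 lists in Tcf7+Pdcd1+ cells, over *Pdcd1* cells with 0 *Tcf7* UMIs (left) and over *Tcf7* cells with 0 *Pdcd1* UMIs (right), colored by call, with a bar at each list's median. The stem-like list had medians of 1.32 and −0.75, the terminal exhaustion list −1.35 and 1.98, and glycolysis −0.63 and 0.73.

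The members were not uniform. A *Ccr7* UMI was found in 70.1%, 60.7%, 80% and 37.9% of them, against 0.948% to 2.45% of the macrophages. A *Gzmb* UMI was found in 43.3%, 35.7%, 27.5% and 45.5% of the members, against 2.39% to 4.91% of the macrophages. Those macrophages came from the CD45+ libraries and do not give the free RNA of the CD8+ libraries. Of the 229 cells, 103 had *Ccr7* without *Gzmb*, 55 had *Gzmb* without *Ccr7*, 35 had both and 36 had neither. *Slamf6* and *Havcr2* met in 9 cells, with 70 cells having *Slamf6* alone and 25 *Havcr2* alone. For *Ccr7* and *Ccl5*, 68 cells had both, 70 only *Ccr7*, 81 only *Ccl5* and 10 neither. These counts rest on cells of different depth and are given without a test.

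Markers of other cell types were traced in the members. The 8 macrophage markers summed to 792, 1043, 560.2 and 459 UMIs per 1000000 in the members and to 401, 447, 380.0 and 298 in the *Pdcd1* cells with 0 *Tcf7* UMIs. Their most abundant gene was *Cd74*, encoding the invariant chain of MHC class II, and *Csf1r* and *Adgre1* had 0 UMIs in the members. *Cd74* and *Ctss* were called higher of the 4 tested against the cells without *Tcf7* UMIs, and *Cd74* of the 2 tested against the cells without *Pdcd1* UMIs (2.49 ± 0.42). The 6 dendritic cell markers summed to 84.0, 177, 0 and 2.004 in the members, to 21.95, 10.6, 29.6 and 1.17 in the cells without *Tcf7* UMIs and to 64.1, 1.63, 5.40 and 3.09 in those without *Pdcd1* UMIs. In the members they were led by *Fscn1*, with *Clec9a* and *Siglech* at 0. All 58 and 83 *Fscn1* UMIs of the *Aire*+/+ isotype and *Aire*+/+ anti-PD1 members lay in 1 cell each, and those cells also held 118 and 90 UMIs of the class II gene *H2-Aa*, 179 and 217 of *Cd74* and 113 and 43 of *Ccr7*. Resting on those 2 cells, *Fscn1* was called higher in edgeR in both comparisons (5.41 ± 0.64 and 8.35 ± 0.59), while *Siglech* (−7.83) and *Ccr9* (−3.83), the other 2 markers tested against the cells without *Tcf7* UMIs, were called lower. *Fscn1* had 0 UMIs in the cells without *Pdcd1* UMIs and *Siglech* 0 in the members. The fitted 8.35 and −7.83 therefore give a direction and not a measured size. With no cell that carried other cell types' markers, *Ccr7* had a log2 fold change of 1.76 ± 0.09 against the cells without *Tcf7* UMIs. The 5 NK cell markers summed to 78.7, 127, 108 and 60.1, led by *Klre1*, with *Ncr1* and *Klra8* at 0, and *Klre1* was lower than in the cells without *Tcf7* UMIs (−0.75) and higher than in those without *Pdcd1* UMIs (1.25). The 5 markers of CD4 and regulatory T cells summed to 153, 137, 181 and 124, led by *Ikzf2*, with *Cd4* at 0. They summed to 227, 213, 199 and 169.9 in the cells without *Tcf7* UMIs, against which *Foxp3* (−3.42) and *Il2ra* (−1.22) were lower and *Ikzf2* (0.85) higher. When cells with other cell types' markers were left out, *Foxp3* was at −2.86 ± 1.15 and no longer called, while *Il2ra* and *Ikzf2* kept their calls. In the cells without *Pdcd1* UMIs the 5 markers summed to 64.1, 58.8, 39.6 and 49.5. *Il2ra* (1.46 ± 0.24) and *Ikzf2* (1.23 ± 0.26), the 2 tested there, were both higher in the members, as were *Tnfrsf4*, *Ctla4* and *Ccr8* above. B cell markers, of which 4 of 6 had a row, summed to 8.002, 10.1, 1.99 and 2.004, led by *Cd79b*, with *Cd79a* and *Ms4a1* at 0. The 5 tumor and stromal markers summed to 5.33, 2.01, 0 and 6.01, led by *Krt18*, with *Krt8* and *Col1a1* at 0, and the 4 neutrophil markers had 0 UMIs. Most members, 160 of 229, had no UMI of the macrophage, B cell, NK cell, neutrophil and dendritic markers other than *Cd74*, *Ctss*, *Tyrobp* and *Klre1*, and with cells of that kind alone edgeR called 349 genes higher and 364 lower against the cells without *Tcf7* UMIs. The part of these markers in the differences between conditions below was not tested beyond the values given there.

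Between conditions, levels in the members are given for 1 library each, so a gene was only called apart at 2-fold or more, among genes with at least 50 UMIs over the pair of libraries. Log2 ratios are followed by their exact 95% interval, which covers counting error alone, where 3 values are given. The 4 pairs share libraries, and each library appears in a pair of each kind.

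Under isotype, *Aire*-/- members had less RNA of *Gzmb* and *Ccl5* than *Aire*+/+ members. *Gzmb* was at 85.7 against 457, a log2 ratio of −2.42, with UMIs in 11 of 40 and 29 of 67 cells, and *Ccl5*, a chemokine of effector and memory cells, at 801 against 2411 (−1.59, −1.75 to −1.43). Without the cell with most *Gzmb* UMIs in each library the *Gzmb* ratio was −2.36. In the cells without *Tcf7* UMIs of the same libraries *Gzmb* had a ratio of 0.22, so the low level was not shared by them, but in the *Tcf7* cells without *Pdcd1* UMIs *Gzmb* was at 225 in *Aire*-/- and 528 in *Aire*+/+ isotype mice, lower in *Aire*-/- mice as in the members. In this pair 30 of 3114 genes were higher (0.963%) and 44 lower (1.41%). Of the 14 cytotoxic genes compared 5 were lower (*Gzma*, *Gzmb*, *Gzmk*, *Ccl4* and *Ccl5*) and 1, *Prf1*, higher, with a median of −0.12 beside 0.03 for all genes. *Ccl4* was just past 2-fold (−1.01), and over the 4 libraries up to 80.9% of a library's *Ccl4* UMIs lay in 1 cell. For *Gzma* (−2.13) and *Prf1* (2.26) a single cell held 93.5% and 79.2% of the UMIs in the *Aire*-/- members, and without the top cell of each library *Gzma* was at −5.06 and *Prf1* at 0.28. Among the genes furthest apart, *Serpine2* was at 209 against 45.3 (2.21, 1.64 to 2.81), *Gm156* at 321 against 84.0 (1.93, 1.505 to 2.38) and *Ccdc184* at 25.9 against 124 (−2.26, −3.22 to −1.41). *Prkca*, a protein kinase C, and *Atf4*, a transcription factor of the stress response, had ratios of 1.28 and 1.20. No gene of the terminal exhaustion list passed 2-fold among 10 compared, and *Klf2*, at 321 against 648, was the only one of 9 stem-like genes that did. Of the 30 higher genes 14 were also higher in the cells without *Tcf7* UMIs, and of the 44 lower genes 24 were also lower, beside 1657 higher and 1457 lower of all 3114 genes.

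Under anti-PD1 the *Aire*-/- members had more RNA of *S1pr1* and of the tissue-residency integrin *Itgae*. *S1pr1* was at 204 against 70.4 (1.54, 0.97 to 2.14), with a UMI in 43 of 66 and 15 of 56 cells, and *Itgae* at 156 against 64.3 (1.28, 0.67 to 1.92). Both were also higher in the *Aire*-/- cells without *Tcf7* UMIs, by 1.24 and 1.005. *Cd7* was at 345 against 66.3 (2.38, 1.83 to 2.96), *Icam1*, an adhesion molecule, at 216 against 56.3 (1.94, 1.33 to 2.60) and *Ccl4* at 754 against 271 (1.47, 1.19 to 1.77). On the lower side stood *Ccl1* at 32.1 against 277 (−3.11, −3.96 to −2.36), with 52.2% of its UMIs in the *Aire*+/+ library in 1 cell, *Jun* at 88.2 against 241 (−1.45, −1.98 to −0.94) and *Tsc22d3*, which glucocorticoids induce, at 216 against 489 (−1.17, −1.52 to −0.84). In all, 30 of 2609 genes were higher (1.15%) and 34 lower (1.30%), and 27 of each had the same direction in the cells without *Tcf7* UMIs, beside 1467 higher and 1142 lower of all 2609. When cells with other cell types' markers were left out, 18 of 1934 genes were higher and 14 lower. *Crlf3* (−1.15) was lower as well with all cells, with a ratio of 0.01 in the cells without *Tcf7* UMIs. *Cd74* was at −2.005, with 58.3% of its UMIs in the *Aire*+/+ library in 1 cell, and the NK cell marker *Klre1* was lower too (−1.11). Of 15 cytotoxic genes compared 1 was higher, of 10 interferon genes 2 (*Irf1* and *Gbp2*), and of 10 terminal exhaustion genes 0 in either direction.

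Few genes differed between genotypes under both treatments. Of 2506 genes compared in both pairs, BC002163 was higher in *Aire*-/- members in both, 1 of 11 and of 23 genes higher in each, which is 9.09% and 4.35% of those lists. Its level was 119.6 against 6.67 under isotype (4.17, 2.86 to 5.84) and 82.2 against 18.1 under anti-PD1 (2.18, 1.12 to 3.41). *Rnaset2b*, a ribonuclease gene with a near-identical copy, was lower in both, at 23.9 against 115 (−2.26, −3.27 to −1.38) and 22.04 against 98.5 (−2.16, −3.25 to −1.20). Each of them had the same direction in the cells without *Tcf7* UMIs, at 3.72 and 3.25 for BC002163 and −1.25 and −2.25 for *Rnaset2b*, and no cell held more than 27.3% of their UMIs in a library. The other 6 genes lower in both pairs, *Fabp5*, *Fscn1*, *H2-Aa*, *H2-Eb1*, *Ifi30* and *Tbc1d4*, had 60.4% to 100% of their UMIs in each *Aire*+/+ library in 1 cell. Without the cell with most UMIs, *H2-Aa*, *H2-Eb1*, *Ifi30* and *Tbc1d4* turned to ratios of 1.58, 0.58, 0.28 and 0.63 under anti-PD1, from −4.51, −3.33, −1.23 and −1.13.

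Anti-PD1 treatment went with the widest differences in *Aire*-/- mice. There *Ccl5* was at 5106 against 801 (2.67, 2.52 to 2.83), *Gzmb* at 431 against 85.7 (2.33, 1.85 to 2.84) and *S1pr1* at 204 against 41.9 (2.29, 1.6 to 3.04). More of the treated members carried each RNA although their median depth was lower: 84.8% against 40.0% for *Ccl5*, 45.5% against 27.5% for *Gzmb* and 65.2% against 22.5% for *S1pr1*. Macrophages of the CD45+ libraries, which can make *Ccl5* themselves, had a *Ccl5* UMI in 41.0% to 63.2%, and a *S1pr1* UMI in 0% to 2.25%. In the cells without *Tcf7* UMIs the ratios were 1.01 for *Ccl5*, 0.49 for *Gzmb* and 1.22 for *S1pr1*, and whether they differ from those of the members was not tested. In the *Tcf7* cells without *Pdcd1* UMIs *Ccl5* went the other way, at 1482 under anti-PD1 against 2473 under isotype. There *Gzmb* was at 181 against 225 and *S1pr1* at 271 against 248. *Ubb*, a ubiquitin gene, was at 1.80 in the members and 1.67 in the cells without *Tcf7* UMIs. *Gzma* at 2.18 rested in the isotype library on 1 cell with 93.5% of its UMIs.

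*Ccl1* RNA went the other way in *Aire*-/- mice, at 32.1 against 369 (−3.52, −4.36 to −2.79), with UMIs in 5 of 66 and 11 of 40 members. *Spp1* (−3.16), *Serpine2* (−2.80) and *Gm156* (−3.32) were lower with 80% to 100% of the UMIs of the anti-PD1 library in 1 cell. *Ccl3* (−1.93) had 65.2% of its UMIs under anti-PD1 and 85.0% of those under isotype in 1 cell each, and without these cells its ratio of −0.72 no longer passed 2-fold. In this pair 97 of 2612 genes were higher (3.71%) and 30 lower (1.15%), and 77 of the 97 were also higher in the cells without *Tcf7* UMIs, as were 1501 of all 2612 genes. Of 14 cytotoxic genes 4 were higher (*Gzma*, *Gzmb*, *Ccl5* and *Tnf*) and 2 lower (*Prf1* and *Ccl3*). *Prf1* (−1.38) had 79.2% of its UMIs under isotype in 1 cell, and without the top cell of each library its ratio turned to 0.49. Of 10 genes induced through the antigen receptor 3 were higher (*Nr4a1*, *Egr1* and *Nfkbid*) and 1, *Jun*, lower, with a median of 0.68 beside 0.01 for all genes. The costimulatory *Tnfrsf4* was at 206 against 522 (−1.34, −1.68 to −1.01) and *Tnfrsf9* at 407 against 947 (−1.22, −1.46 to −0.98), while *Icos* was at 461 against 219 (1.07, 0.74 to 1.41). Of 9 stem-like genes *S1pr1* and *Klf2* were higher and *Xcl1*, at 473 against 977 (−1.05, −1.28 to −0.82), was lower. Without the top cells *Jun* and *Xcl1* were within 2-fold, at −0.90 and −0.84. None of 10 terminal exhaustion genes passed 2-fold.

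In *Aire*+/+ mice *Ccl4* and *Ccl3* were lower under anti-PD1, whereas *Ccl5* was not, at 2869 against 2411 (0.25, 0.15 to 0.35). *Ccl4* was at 271 against 1808 (−2.74, −3.00 to −2.48) and *Ccl3* at 74.4 against 333 (−2.16, −2.70 to −1.66), the latter with 75.7% of its UMIs under anti-PD1 in 1 cell. Together with *Ifng*, at 181 against 372 (−1.04, −1.40 to −0.69), they were the 3 lower genes of 16 cytotoxic genes compared, and none was higher. Without the top cells *Ifng* was within 2-fold, at −0.73. In the cells without *Tcf7* UMIs these 3 genes had ratios of −0.41, −0.66 and −1.07. On the higher side were *Cxcr4* at 129 against 49.3 (1.38, 0.78 to 2.01), *Pmaip1*, which promotes cell death (1.36), *Lta*, encoding lymphotoxin-α (1.27), *Klre1*, an NK cell marker (1.24), *Rgs10* (1.21) and *Fscn1*, a dendritic cell marker with all its UMIs in 1 cell per library (1.11). *Ccdc184* (−2.36), *Cst3*, encoding cystatin C (−1.31, and −0.93 without the top cells) and *Rhob* (−1.30) were lower. In all, 23 of 3104 genes were higher (0.741%) and 28 lower (0.902%), of which 16 and 22 had the same direction in the cells without *Tcf7* UMIs, beside 1777 higher and 1327 lower of all 3104.

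Genes that passed 2-fold with treatment in both genotypes numbered 8 of the 2534 compared in both pairs. *Csf1*, a growth factor for macrophages, was higher at 153 against 64.0 in *Aire*+/+ (1.26, 0.72 to 1.81) and 142 against 17.9 in *Aire*-/- members (2.99, 1.98 to 4.17), along with *Gch1* (1.01 and 1.06), the integrin gene *Itga4* (1.20 and 1.11) and the nuclear lamin gene *Lmna* (1.01 and 1.69). These 4 were 36.4% of the 11 higher genes in *Aire*+/+ and 4.55% of the 88 in *Aire*-/- mice. *Ikzf2*, a transcription factor of the Ikaros family, was lower at 36.2 against 84.0 (−1.22, −2.06 to −0.44) and 46.1 against 108 (−1.22, −1.995 to −0.50). *Igfbp7* (−1.14 and −1.36), *Ccl3* and *Spp1* were lower too, *Ccl3* in *Aire*-/- mice only with the cells named above, and these 4 were 26.7% of the 15 lower genes in *Aire*+/+ and 15.4% of the 26 in *Aire*-/- mice. In the cells without *Tcf7* UMIs *Csf1* had ratios of 0.51 and −0.21.

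**Figure D4:**
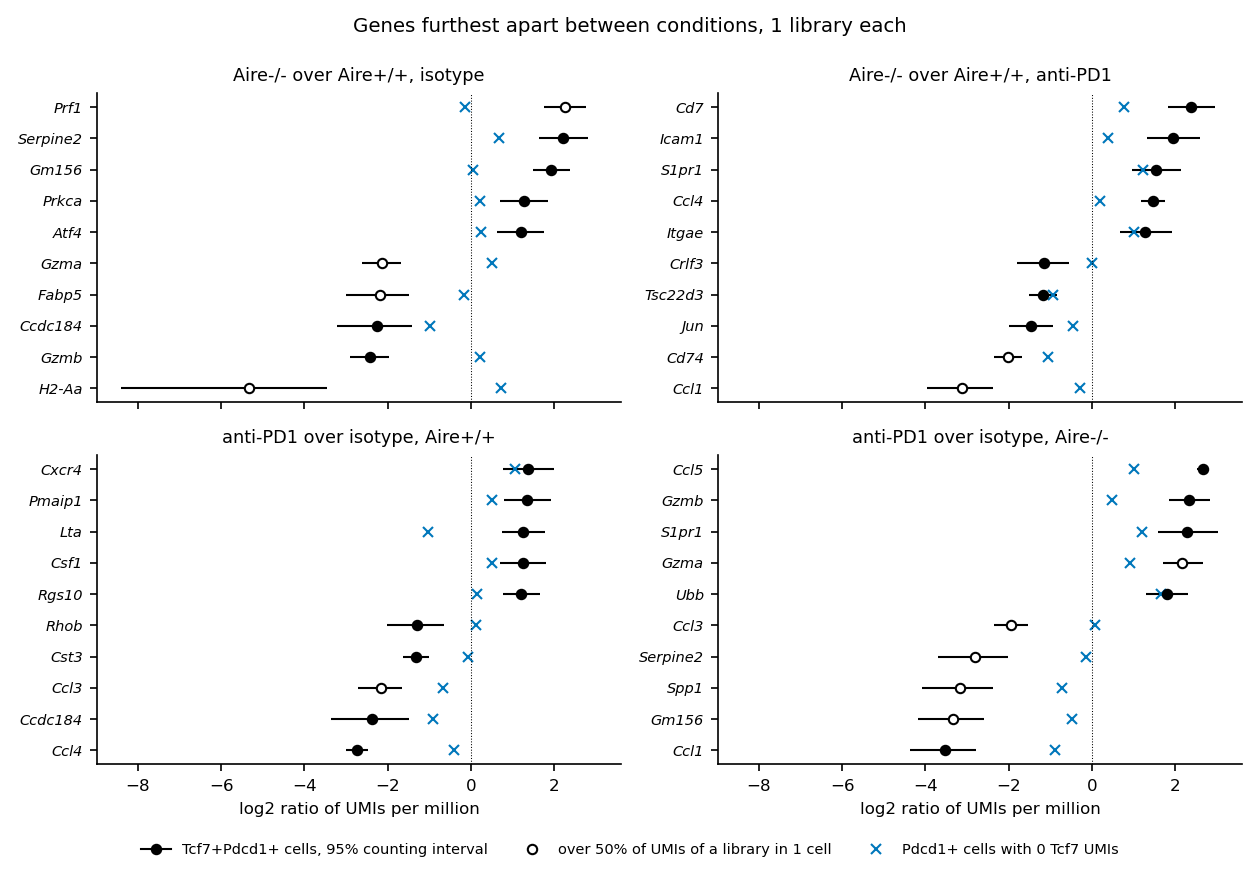
Log2 ratios of UMIs per 1000000 in Tcf7+Pdcd1+ cells for the 5 genes furthest apart in each direction and pair of conditions, among genes with at least 100 UMIs over the pair, with exact 95% counting intervals and 1 library per condition. Open circles mark genes with over 50% of a library's UMIs in 1 cell, and crosses give the ratio in *Pdcd1* cells with 0 *Tcf7* UMIs, as for *Ccl5* in anti-PD1-treated *Aire*-/- mice, at 2.67 beside 1.01.

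Promoters from RefSeq (250 bases before to 50 after each start, GRCm38) were searched on either strand for the core letters that TCF factors prefer. Of the genes with the largest changes, 6 of 10 higher and 10 of 10 lower genes of the comparison over *Tcf7* matched a promoter, and 8 of 10 and 6 of 10 in the comparison over *Pdcd1*. Only *Txk* had a match, beside 9.88% of 27025 genes in the table.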

How the data were processed

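The authors deposited UMI counts per gene and barcode for 16 libraries made with a droplet kit for the 3′ end of RNA, with no normalization and for barcodes called as cells only. Counting was done with Cell Ranger, and GRCm38 is the build named for the files. All deposited columns were matched to a sample. The symbol of a gene is the part of its row name before the first _ sign, and rows of a symbol were summed. The members, gene lists and comparisons were chosen with earlier results of these data known.

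Cells are not replicates, so UMIs were summed per library and set of cells. The sums of the 4 tumor CD8+ libraries, which pool the cells of 4 to 6 mice each, were tested with edgeR 4.0.16 (R 4.3.3; TMM scaling, quasi-likelihood F test, library as a block, genes with at least 80 UMIs over the 8 sums), with Benjamini-Hochberg adjustment over all genes tested. The depth per library is 22421677 to 35180747 UMIs. SEs are the log2 fold change divided by the square root of F. Python 3.11.15 with numpy 2.4.6, pandas 2.3.3, scipy 1.17.1 and matplotlib 3.10.9 did the rest, and Seurat was not run. No doublets were removed. Alternatives were DESeq2 1.42.0, total UMIs without TMM, no filter on low counts, no block, cells with at least 200 genes and at most 20% mitochondrial UMIs, cells with no UMI of other cell types' markers, cells thinned to 3000 UMIs, members with at least 2 *Tcf7* UMIs, other denominators of the share, other UMI minimums, and leaving out each library.

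Named genes are those of 11 lists, the 10 with the largest log2 fold change in each direction of each edgeR test among genes called, alike in direction in 4 libraries and at 50 UMIs per 1000000 or more on the higher side, and, between conditions, the 5 furthest apart in each direction with at least 100 UMIs and those past 2-fold in both pairs. In the CD45+ cells, genes with at least 20 UMIs over both sets were compared.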

Additional observations from a re-analysis of the deposited data

Results flagged for a closer look

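A few genes passed 2-fold in opposite directions in the 2 pairs of conditions of a kind, in Tcf7+Pdcd1+ cells. The log2 ratio of *Aire*-/- to *Aire*+/+ members under anti-PD1 minus that under isotype was 2.48 for *Ccl4*, −2.11 for *Nrn1*, −2.82 for *Nrgn* and −2.22 for *Idh3g*. *Ccl4* went from −1.01 under isotype to 1.47 under anti-PD1, with 1356 UMIs in *Aire*+/+ isotype and 135 in *Aire*+/+ anti-PD1 members, and a cell held up to 80.9% of its UMIs in a library. *Nrn1* went from 1.05 to −1.06, *Nrgn* from 1.30 to −1.52 and *Idh3g* from 1.01 to −1.21, the last 2 on 15 to 46 UMIs per library. *Nrgn* also differed in the ratio of anti-PD1 to isotype, by −2.82 between *Aire*-/- and *Aire*+/+ mice (−1.61 against 1.21), from the same 4 libraries. With 1 library per condition, none of these differences was tested.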

How the results depend on the processing

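Among genes called with all cells or under the alternative, directions held except in the genes given here, with the value under the alternative. After thinning each cell to 3000 UMIs they were *Marcksl1* −0.0831, *Xcl1* −0.54, *Mx1* −0.59, *H2afz* −0.0288 and *Cd40lg* 1.498 against cells with 0 *Tcf7* UMIs. After the same thinning they were *Foxo1* 0.36 and *Nfkbid* 0.00346 against cells with 0 *Pdcd1* UMIs. Without the cell with most UMIs of a gene (chosen after seeing the data), they were *H2-Aa* 1.58, *H2-Eb1* 0.58, *Ifi30* 0.28 and *Tbc1d4* 0.63 between genotypes under anti-PD1. *Prf1* also turned without its top cells, for anti-PD1 over isotype in *Aire*-/- mice, with its values given above. The causes were not tested. Genes called in neither could also change sign, as *Hk2* did (−0.11 against cells with 0 *Tcf7* UMIs when cells with other cell types' markers were left out).

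Counts moved more. Against cells with 0 *Tcf7* UMIs (393 higher, 460 lower), 78 genes were higher and 233 lower after thinning, 285 were lower with DESeq2 and 727 lower with no filter on low counts, which tests 14278 genes, and leaving out each library gave 205 to 387 higher and 263 to 420 lower. Against cells with 0 *Pdcd1* UMIs (550 and 548), DESeq2 gave 258 and 250, no TMM factor 1106 and 333, thinning 120 and 132 of 1772 genes, and leaving out each library 325 to 429 and 371 to 456. Of 90 named genes called in the first comparison, 77 kept their call with DESeq2, 68 with no library block, 80 of 88 tested with members of at least 2 *Tcf7* UMIs and 71 to 84 without 1 library. Of 95 in the second, 75, 85 and 80 to 86 did with DESeq2, no block and without 1 library. The test planned in CD45+ tumor libraries and its alternatives were not run, since 3 of the 4 had fewer members than the planned minimum of 10.

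Shares in the order of the report were 1.08%, 0.818%, 1.05% and 0.972% with at least 2 *Tcf7* UMIs, 7.66%, 6.24%, 6.39% and 7.94% of cells with *Pdcd1* UMIs within the limits, 5.76%, 5.06%, 5.08% and 5.64% without the granzyme, interferon and cell-cycle limits, and 1.04%, 1.18%, 0.965% and 1.88% after thinning. 

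Numbers of genes 2-fold apart, in the order *Aire*-/- over *Aire*+/+ under isotype and anti-PD1, then anti-PD1 over isotype in *Aire*+/+ and *Aire*-/- mice, were 141, 156, 152 and 304 higher and 223, 161, 199 and 161 lower with at least 20 UMIs, 8, 11, 9 and 40 higher and 14, 7, 9 and 12 lower with at least 100, and 2, 11, 3 and 27 higher and 11, 1, 5 and 4 lower after thinning. Cells with no UMI of other cell types' markers gave 19, 18 and 51 higher in the first, second and last pair and 14 lower in the second. Without the cell with most UMIs of a gene, 12 were higher in the first pair and 17 lower in the second. The depth of the members, 497374 to 749842 UMIs a library, limits the genes that can be compared.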

Other observations

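The same conditions applied outside the tumor CD8+ libraries found 35 cells in CD45+ tumor libraries, 95 in CD8+ splenic libraries and 17 in CD45+ splenic libraries. In the spleen they were 1.04%, 1.08%, 0.609% and 0.824% of CD8 T cells of the CD8+ sort (95% intervals 0.695 to 1.48, 0.732 to 1.52, 0.333 to 1.02 and 0.511 to 1.26), and in the CD45+ tumor libraries 3.38%, 3.398%, 1.48% and 2.84% of 148, 206, 203 and 703 CD8 T cells, with intervals of 1.11 to 7.71, 1.38 to 6.88, 0.306 to 4.26 and 1.75 to 4.36. The splenic libraries were shallower, so their shares and those of the tumors were not compared.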
